A study of Mus musculus with 6 samples.

Results

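The 38 genes described here are a hand-picked set of the unfolded protein response and the integrated stress response, found by gene symbol among the 49315 genes of the count table. All 38 passed the filter on low counts (at least 5 counts in at least 2 samples) that left 18234 genes to test. The genes fall into 7 roles: transcription factors of the integrated stress response, feedback and stress effectors, amino acid and one-carbon enzymes, the sensors of endoplasmic reticulum stress with Xbp1, chaperones, lectin chaperones with disulfide isomerases, and genes that remove misfolded proteins. The genes are taken by name, and the set was drawn up with earlier results of these data known.

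RNA was sequenced from bEND.3 cells, a line of endothelial cells from mouse brain that has been immortalized, to ask which transcripts depend on the long non-coding RNA Gm39822. The 4 treated samples had received a locked nucleic acid GapmeR against Gm39822 at 100 nM. The 2 control samples had received a negative control GapmeR, also a locked nucleic acid, at 100 nM. Below, the GapmeR and GapmeR samples refer to the one against Gm39822. A GapmeR is an antisense oligonucleotide with a DNA core, which lets RNase H cut the RNA it pairs with. Both groups are the same cell line and both were transfected with a lipid reagent, so neither group shows untransfected cells. The values belong to 1 targeting GapmeR in 1 line. The labels do not say whether the samples of a group came from separate cultures, so the p-values measure the spread between these samples, which may be technical.

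Total counts per sample lay between 29261988 and 37117934. Expression is given as CPM (counts divided by library size, after edgeR's TMM scaling), and each change as a log2 fold change of GapmeR over control with its standard error (SE). A gene was called where edgeR's quasi-likelihood test gave an adjusted p under 0.05. Gm39822 had 2, 1, 4 and 2 counts after the GapmeR, against 61 and 56 counts in the negative controls (adjusted p = 8.8e-08 from edgeR). The defining endothelial markers were present, with a summed level of 6290 to 7270 CPM after the GapmeR against 8520 and 8770 CPM, and 6 of the 10 were called lower. The summed level of 10 macrophage markers was 224, 204, 342 and 375 CPM in GapmeR samples 1 to 4, against 174 and 170 CPM, with 2 called higher. Mural cell markers were at 8.78 to 12.6 CPM against 1.72 and 2.37 CPM, with 2 of 7 tested called higher. Fibroblast markers were at 17.2 to 92.0 CPM against 15.9 and 17.5 CPM, with the highest sum in GapmeR sample 3 and none of 6 called. The part of these markers in the results below was not tested.

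The unfolded protein response senses misfolded proteins in the endoplasmic reticulum through the membrane proteins IRE1 (gene Ern1), ATF6 and PERK (gene Eif2ak3). IRE1 splices Xbp1 mRNA and ATF6 is cleaved, and the resulting transcription factors raise the chaperones and degradation machinery of the compartment. PERK and its sister kinases phosphorylate the initiation factor eIF2, which slows translation, favours translation of Atf4 and so turns on genes of amino acid supply, the branch called the integrated stress response. Endothelial cells secrete and display many glycoproteins and rely on this folding machinery. Counts per gene show neither the splicing of Xbp1, the cleavage of ATF6 nor the translation of Atf4.

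Many promoters of the folding genes carry the endoplasmic reticulum stress element, a pair of short boxes bound by NF-Y and by ATF6 or XBP1. Those of the members are shown because the folding genes, for which these boxes are known, held most of the members called. RefSeq promoters on mm10 (250 bases before to 50 bases after the gene start) were matched for 35 of the 38 members by symbol, all but Manf, Hyou1 and Atf6. The letters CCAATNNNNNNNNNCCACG were searched on both strands and were found in 8 of the 35 members (22.9%), against 39 of 32851 promoters (0.119%). The second form, ATTGGNCCACG, was in Herpud1 alone among the members and in 12 promoters in all (0.0365%). Each stretch below reads 5′ to 3′ on the strand of its gene, with the matched letters in capitals. On Calr, Creld2 and the second stretch of Hsp90b1 the element lies in reverse complement.
Hspa5 (chr2:34772013-34772055, plus strand): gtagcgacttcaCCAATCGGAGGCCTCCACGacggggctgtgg
Calr (chr8:84847063-84847105, minus strand): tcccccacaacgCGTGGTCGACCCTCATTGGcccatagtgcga
Hsp90b1, first (chr10:86705626-86705668, minus strand): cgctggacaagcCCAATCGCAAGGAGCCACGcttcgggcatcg
Hsp90b1, second (chr10:86705521-86705563, minus strand): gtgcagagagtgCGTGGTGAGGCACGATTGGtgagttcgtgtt
Canx (chr11:50325788-50325830, minus strand): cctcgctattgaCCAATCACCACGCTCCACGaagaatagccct
Pdia6 (chr12:17266479-17266521, plus strand): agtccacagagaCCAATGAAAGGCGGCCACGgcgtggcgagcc
Dnajc3 (chr14:118937815-118937857, plus strand): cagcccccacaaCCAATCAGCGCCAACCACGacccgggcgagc
Creld2 (chr15:88819508-88819550, plus strand): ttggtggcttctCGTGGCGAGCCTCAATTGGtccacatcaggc
Syvn1 (chr19:6046520-6046562, plus strand): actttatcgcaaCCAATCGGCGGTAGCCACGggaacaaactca
Herpud1, second form (chr8:94386365-94386399, plus strand): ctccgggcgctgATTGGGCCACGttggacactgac

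After the GapmeR, 13 of the 17 members that fold and clear proteins in the endoplasmic reticulum were called lower. The members of the integrated stress response were called in both directions, 29.4% higher and 17.6% lower. Of the 38 members, 26 were called, 7 higher (18.4%) and 19 lower (50%). Over all genes tested, 25.4% were called higher and 20.0% lower. The members are well expressed, and among the 8870 genes with a mean of at least 10 CPM, 21.1% were called higher and 30.7% lower. The median log2 fold change of the members was -0.21, beside 0.03 over all genes tested and -0.07 over those of at least 10 CPM. The changes were modest, from -0.89 for Edem1 to 0.81 for Aldh18a1. All GapmeR samples lay above both controls in 10 members and below both in 23, and such separation held for 59.2% of all genes tested. Over all 18234 genes tested, 5811 lay above both controls and 4985 below. Among the 8870 genes of at least 10 CPM, 2302 lay above and 3468 below. Scaled by library size alone, without TMM factors, the median of all genes tested moved up by 0.15 to 0.17 on the log2 scale, and 13 members were called higher and 13 lower.

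The median log2 difference of the members from the control mean was -0.17, -0.23, -0.19 and -0.20 in GapmeR samples 1 to 4. These medians were close to each other, but in counts over all genes GapmeR sample 2 differed most from the other treated samples. With GapmeR samples 1 and 2 only, those with fewer counts on macrophage markers, 7 members were called higher and 16 lower. In bulk RNA, a lower level can come from fewer cells that express a gene or from less RNA in each cell, and these cannot be told apart.

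The 17 members that act in folding and degradation stood lowest. Of these, 13 were called lower, 1 (Herpud1) higher and 3 were not called, and 16 of the 17 log2 fold changes were below 0 (Hspa5 was at 0.03 when scaled by library size only), with a median of -0.34. The 17 members of the 3 integrated stress response roles had 5 called higher (29.4%), 3 called lower (17.6%) and 9 not called, with a median of 0.12. These shares are near the 25.4% and 20.0% of all genes tested. Beside the genes of at least 10 CPM (21.1% higher, 30.7% lower), the share called higher was larger and the share called lower smaller. The difference was not tested. The plot of log2 fold changes by role shows the 2 sets beside the sensors.

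**Figure D1:**
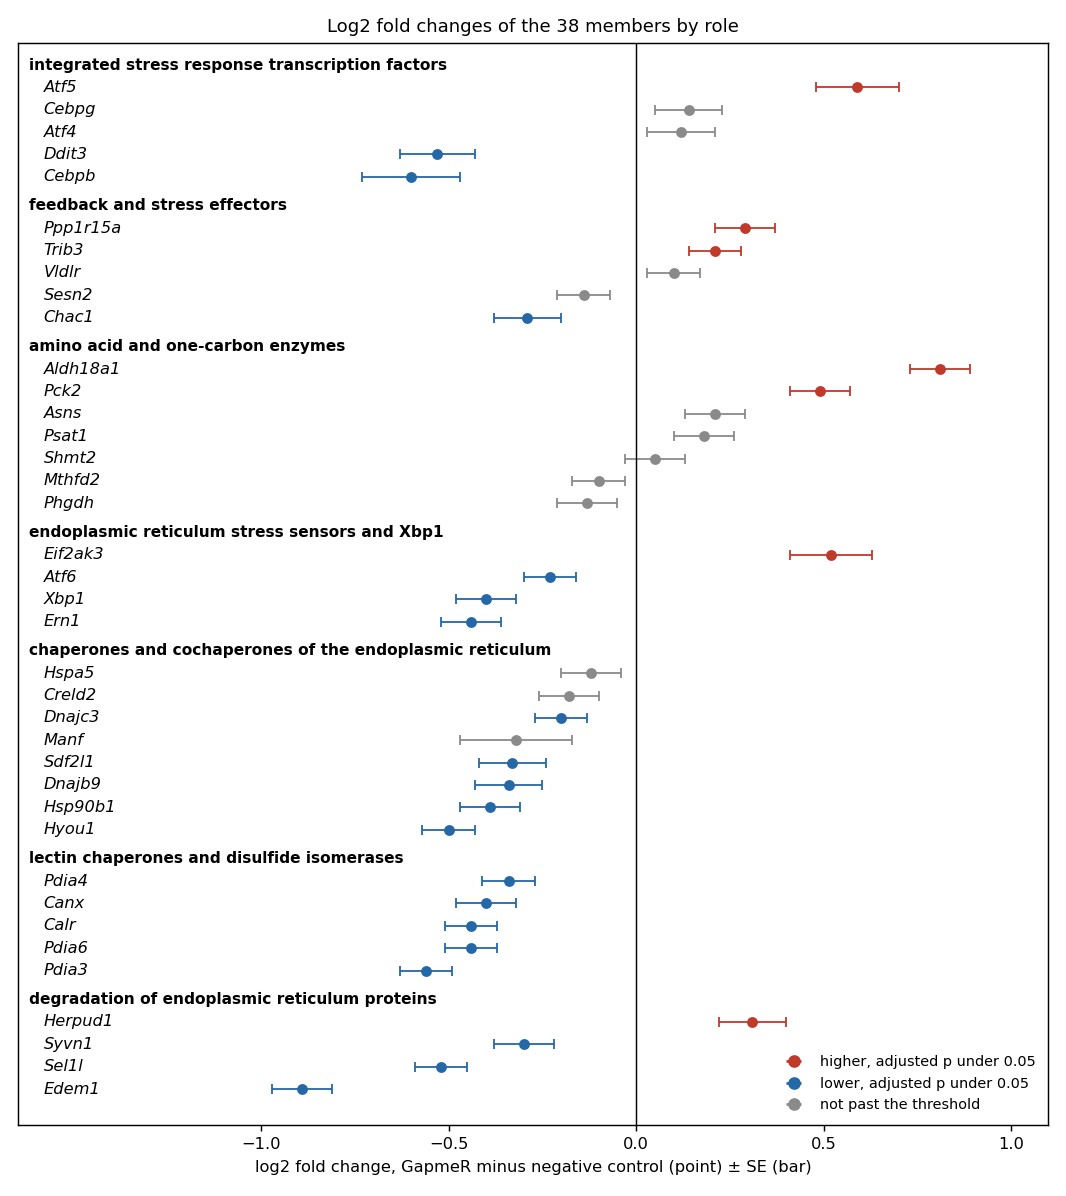
Log2 fold change of GapmeR over negative control for each of the 38 members (horizontal axis; point, estimate; bar, SE), grouped by role and coloured by the call at adjusted p 0.05 from edgeR. All 13 points of the chaperone and lectin chaperone roles lie left of 0, from -0.56 to -0.12 (Hspa5 was at 0.03 when scaled by library size only), while the integrated stress response roles at the top spread from -0.60 to 0.81.

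Of the sensors, the one that opens the eIF2 branch rose and the others fell. Eif2ak3, which encodes the kinase PERK, was at 12.7, 14.7, 12.8 and 15.6 CPM after the GapmeR and 10.1 and 9.37 CPM in the controls. All 4 treated samples were above both controls, and the log2 fold change was 0.52 (SE 0.11, adjusted p = 0.0015 from edgeR). Ern1, which encodes the kinase and ribonuclease IRE1, was at 31.3, 29.1, 28.7 and 32.9 CPM against 40.0 and 42.8 CPM. The groups did not overlap, with the treated samples lower (log2 fold change -0.44, SE 0.08, adjusted p = 3.0e-04).

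Xbp1, the mRNA that IRE1 splices, was at 77.8, 66.9, 76.9 and 70.2 CPM after the GapmeR and 96.7 and 95.5 CPM in the controls. Every treated sample was below both controls, and the log2 fold change was -0.40 (SE 0.08, adjusted p = 4.7e-04). Annotated exons of the neighbouring gene Ccdc117 on the opposite strand cover 22.0% of the exon bases of Xbp1, and since the strand setting of the counting is not given in the sources used here, reads there may be shared. Atf6 was at 72.0, 67.9, 67.4 and 69.6 CPM against 80.7 and 81.4 CPM, lower in all 4 treated samples (log2 fold change -0.23, SE 0.07, adjusted p = 0.012). The call on Atf6 was lost when scaled by library size only (-0.08, adjusted p = 0.35), without negative control 1 (-0.22, adjusted p = 0.096), without negative control 2 (-0.20, adjusted p = 0.13) and with GapmeR samples 1 and 2 only (-0.19, adjusted p = 0.091).

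The principal transcription factors of the integrated stress response did not move together. Atf4, the activator that eIF2 phosphorylation favours, was at 433, 379, 442 and 472 CPM after the GapmeR and 415 and 378 CPM in the controls. The groups overlapped, and the log2 fold change of 0.12 (SE 0.09, adjusted p = 0.28) did not pass the test. Atf4 did pass without GapmeR sample 2 (0.18, adjusted p = 0.029) and when scaled by library size only (0.27, adjusted p = 0.019). Ddit3, which encodes the pro-apoptotic factor CHOP and is a target of ATF4, was at 152, 127, 153 and 123 CPM against 181 and 219 CPM. All treated samples were lower, with a log2 fold change of -0.53 (SE 0.10, adjusted p = 7.6e-04). Exons of other annotated genes, among them a second record of Ddit3, Mars1 and Mbd6, cover 82.4% of the annotated exon bases of Ddit3, so its count is uncertain.

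**Figure D2:**
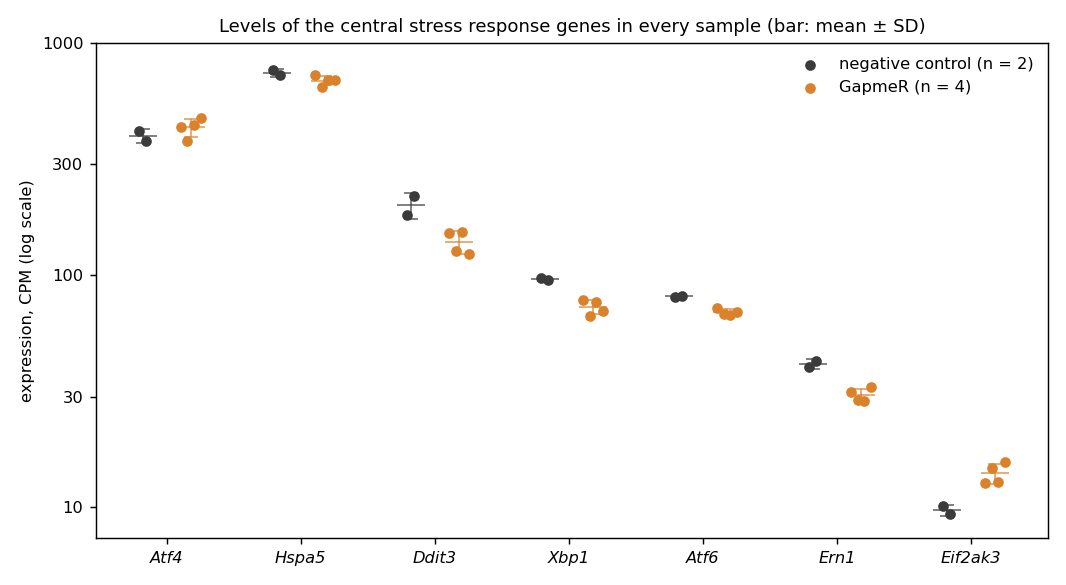
Expression in CPM on a log axis for Atf4, Hspa5, Ddit3, Xbp1, Atf6, Ern1 and Eif2ak3 in each of 4 GapmeR (orange) and 2 negative control (black) samples, with the mean and SD of each group. The groups overlap for Atf4 and Hspa5, the GapmeR samples lie below the controls for Ddit3, Xbp1, Atf6 and Ern1, and above them for Eif2ak3.

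Atf5, an ATF4-related factor that is itself raised by translational control, was at 111, 87.5, 116 and 93.5 CPM after the GapmeR and 64.5 and 70.7 CPM in the controls. It was the only one of the 5 transcription factors called higher (log2 fold change 0.59, SE 0.11, adjusted p = 6.2e-04). Cebpb, a partner of CHOP and ATF4, was at 70.9, 55.4, 65.7 and 53.8 CPM against 104 and 81.8 CPM, lower in every treated sample (-0.60, SE 0.13, adjusted p = 0.0032). Exons of Peds1 on the opposite strand cover 20.7% of its exon bases. Cebpg, the other C/EBP partner, was at 81.8 to 99.8 CPM against 78.2 and 87.9 CPM and overlapped (log2 fold change 0.14, SE 0.09, adjusted p = 0.19). With GapmeR samples 1 and 2 only it passed (0.26, adjusted p = 0.025), as it did when scaled by library size only (0.29, adjusted p = 0.013).

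Of the 5 feedback and stress effectors, 2 rose, 1 fell and 2 were not called. Ppp1r15a encodes GADD34, the phosphatase subunit that restores translation by removing phosphate from eIF2, and was at 201, 185, 206 and 212 CPM after the GapmeR and 163 and 167 CPM in the controls. Trib3, a pseudokinase that binds and restrains ATF4, was at 96.8, 91.7, 100.0 and 93.7 CPM against 81.2 and 83.8 CPM. Both were above the controls in all 4 samples, with log2 fold changes of 0.29 (SE 0.08, adjusted p = 0.0057) for Ppp1r15a and 0.21 (SE 0.07, adjusted p = 0.021) for Trib3. Ppp1r15a missed the threshold without negative control 1 (0.29, adjusted p = 0.06). Trib3 missed it without negative control 1 (0.21, adjusted p = 0.13), without negative control 2 (0.26, adjusted p = 0.072) and with GapmeR samples 1 and 2 only (0.21, adjusted p = 0.058).

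Chac1, an enzyme that degrades glutathione and a target of ATF4, fell by 0.29 on the log2 scale (SE 0.09, adjusted p = 0.011), from 113 and 110 CPM to between 78.2 and 98.1 CPM. That call was lost when scaled by library size only (-0.14, adjusted p = 0.17), and without negative control 1 (-0.25, adjusted p = 0.13) or negative control 2 (-0.29, adjusted p = 0.089). Sesn2, an inhibitor of mTORC1 signalling, had a log2 fold change of -0.14 (SE 0.07, adjusted p = 0.12), and Vldlr, a lipoprotein receptor, one of 0.10 (SE 0.07, adjusted p = 0.28). Neither was called, although the groups did not overlap for either gene.

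Among the 7 amino acid and one-carbon enzymes, 2 were called higher and none lower. Aldh18a1 (mm10 chromosome 19, 40550257 to 40588463), which encodes the enzyme that commits glutamate to proline synthesis, was at 118, 109, 119 and 117 CPM after the GapmeR and 69.0 and 63.0 CPM in the controls. It showed the largest rise of the 38 members, 1.75-fold (log2 fold change 0.81, SE 0.08, adjusted p = 2.9e-07), and 19.5% of its exon bases overlap antisense genes. Pck2, the mitochondrial phosphoenolpyruvate carboxykinase, was at 65.2, 58.3, 62.4 and 61.2 CPM against 46.0 and 41.7 CPM (0.49, SE 0.08, adjusted p = 6.9e-05). In both genes every treated sample exceeded both controls by more than the spread within either group.

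The other 5 enzymes were not called. Asns, asparagine synthetase, had the adjusted p nearest to the threshold (log2 fold change 0.21, SE 0.08, adjusted p = 0.052), followed by Psat1 of serine synthesis (0.18, SE 0.08, adjusted p = 0.06). Without GapmeR sample 2 both passed, Asns at 0.26 (adjusted p = 0.0032) and Psat1 at 0.18 (adjusted p = 0.037). The method also decided both calls. Asns and Psat1 passed with DESeq2's Wald test (adjusted p = 0.048 and 0.049) and when scaled by library size only (adjusted p = 0.0019 and 0.0024). Both also passed with a filter of at least 10 counts in every sample (adjusted p = 0.024 and 0.022). With no filter, Asns passed (adjusted p = 0.036) and Psat1 did not (adjusted p = 0.078). Psat1 also passed without GapmeR sample 3 (0.22, adjusted p = 0.046) or negative control 1 (0.31, adjusted p = 0.029). Phgdh, the first enzyme of serine synthesis, was at -0.13 (SE 0.08), Shmt2 at 0.05 (SE 0.08) and Mthfd2 at -0.10 (SE 0.07), the last pair being enzymes of mitochondrial folate metabolism. The adjusted p of these genes was 0.20, 0.65 and 0.28.

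The chaperones and cochaperones had 5 of 8 called lower and none higher, and all 8 log2 fold changes were below 0 (Hspa5 was at 0.03 when scaled by library size only). Hspa5 encodes BiP, a major chaperone of the compartment and a common readout of the unfolded protein response. It was at 724, 646, 689 and 689 CPM after the GapmeR and 765 and 723 CPM in the controls. The groups overlapped by a single sample, GapmeR 1, and the log2 fold change of -0.12 (SE 0.08, adjusted p = 0.23) was not called. Exons of Rabepk on the opposite strand cover 44.2% of the exon bases of Hspa5.

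Hyou1, a nucleotide exchange factor of BiP, fell the most of the chaperones. It was at 171, 161, 171 and 164 CPM after the GapmeR and 234 and 237 CPM in the controls (log2 fold change -0.50, SE 0.07, adjusted p = 2.0e-05). Hsp90b1, the HSP90 of the endoplasmic reticulum, was at 570, 568, 530 and 525 CPM against 692 and 747 CPM (-0.39, SE 0.08, adjusted p = 5.0e-04). For both genes the treated samples lay apart from the controls by more than the range of either group. The J-domain cochaperone Dnajb9 fell by 0.34 (SE 0.09, adjusted p = 0.0037), Sdf2l1, a further partner of BiP, by 0.33 (SE 0.09, adjusted p = 0.0099) and Dnajc3, a J-domain cochaperone that also inhibits PERK, by 0.20 (SE 0.07, adjusted p = 0.031) on the log2 scale.

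The calls of those last genes depended on single libraries, on the scaling and, for Dnajc3, on the method and the filter. With DESeq2's Wald test Dnajc3 was at -0.19 (adjusted p = 0.056). With a filter of at least 10 counts in every sample it was at -0.15 (adjusted p = 0.085 from edgeR). Scaled by library size only, Dnajb9 was at -0.20 (adjusted p = 0.081), Sdf2l1 at -0.18 (adjusted p = 0.15) and Dnajc3 at -0.05 (adjusted p = 0.61). Without negative control 2, Dnajb9 was at -0.27 (adjusted p = 0.10), Sdf2l1 at -0.21 (adjusted p = 0.23) and Dnajc3 at -0.11 (adjusted p = 0.40). Dnajc3 was also lost without GapmeR sample 1 (-0.21, adjusted p = 0.051), 3 (-0.17, adjusted p = 0.09) or 4 (-0.19, adjusted p = 0.058), or without negative control 1 (-0.24, adjusted p = 0.068). With GapmeR samples 1 and 2 only, Dnajb9 was at -0.23 (adjusted p = 0.059) and Dnajc3 at -0.16 (adjusted p = 0.16). The uncalled Manf, a secreted trophic protein that binds BiP, had the widest error of the set, at 142, 190, 138 and 125 CPM against 174 and 198 CPM (log2 fold change -0.32, SE 0.15, adjusted p = 0.13). GapmeR sample 2 lay between the controls, and without it Manf was at -0.46 (adjusted p = 6.4e-05), though 42.8% of its exon bases overlap those of other genes. Creld2, a stress-inducible secreted protein, was at -0.18 (SE 0.08, adjusted p = 0.067) and was not called.

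The 5 lectin chaperones and disulfide isomerases, which fold glycoproteins, were all called lower, with log2 fold changes of -0.56 to -0.34. Pdia3, the isomerase that works on glycoproteins held by calreticulin and calnexin, was at 467, 455, 444 and 462 CPM after the GapmeR and 678 and 672 CPM in the controls. The gap between the groups was far wider than either range (log2 fold change -0.56, SE 0.07, adjusted p = 7.1e-06), and opposite-strand exons of Catsper2, Ell3 and Serinc4 cover 26.5% of its exon bases. Calr, calreticulin, was at 309, 313, 332 and 336 CPM against 450 and 427 CPM (-0.44, SE 0.07, adjusted p = 1.1e-04). Canx, calnexin, was at 495, 451, 476 and 436 CPM against 605 and 623 CPM (-0.40, SE 0.08, adjusted p = 4.1e-04).

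Pdia6 was at 194, 198, 196 and 193 CPM after the GapmeR and 265 CPM in both controls (log2 fold change -0.44, SE 0.07, adjusted p = 5.2e-05). Pdia4 was at 101 to 117 CPM against 142 and 136 CPM (-0.34, SE 0.07, adjusted p = 0.0015). In all 5 genes of this role every treated sample was below both controls, as in 3468 of the 8870 genes of at least 10 CPM. Each of the 5 stayed called in all 14 alternative settings without a fold threshold. None of the 5 reached a fall of 1.5-fold, the largest being 1.48-fold for Pdia3.

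Of the 4 genes of degradation, Edem1, Sel1l and Syvn1 were lower and Herpud1 was higher. Edem1 (mm10 chromosome 6, 108824045 to 108859356) acts in the degradation of misfolded glycoproteins. It was at 69.7, 60.7, 69.2 and 61.3 CPM after the GapmeR and 116 and 126 CPM in the controls. This was the largest fall of the 38 members, 1.85-fold (log2 fold change -0.89, SE 0.08, adjusted p = 1.3e-07). Sel1l, the adaptor of the ubiquitin ligase HRD1, was at 77.5, 68.5, 73.3 and 71.9 CPM against 99.2 and 109 CPM (-0.52, SE 0.07, adjusted p = 3.0e-05). The treated samples of both genes were well below the controls.

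Syvn1, which encodes HRD1 itself, was at 56.1 to 65.1 CPM after the GapmeR and 71.2 and 78.6 CPM in the controls (log2 fold change -0.30, SE 0.08, adjusted p = 0.0042). Herpud1, a membrane protein that organises the HRD1 complex, went the other way, with 25.5, 23.2, 24.6 and 27.4 CPM against 20.7 and 19.9 CPM (0.31, SE 0.09, adjusted p = 0.011). Groups were separate for both. Without negative control 2, neither Syvn1 (-0.21, adjusted p = 0.15) nor Herpud1 (0.30, adjusted p = 0.087) was called. Scaled by library size only, Syvn1 was at -0.16 (adjusted p = 0.11).

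Set against the promoter letters, the 8 members with the endoplasmic reticulum stress element had 6 called lower and 2 not called (Hspa5 and Creld2), and all 8 were below 0, save Hspa5 when scaled by library size only (0.03), with a median of -0.35. The 7 folding and degradation members of the promoter table without it had 6 called lower and 1 (Herpud1) called higher, with a median of -0.34. The medians with and without the letters were of like size, and their difference was not tested. The elements lay between 212 and 26 bases before the gene start. Of 29 other genes with the element, 10 were tested, of which 6 were called higher and 2 lower, with a median of 0.61. Of the 6, 2 (Derl3 and Ero1b) belong to the folding and degradation genes described next. The largest rises, of Derl3, Ptgdr2 and Ero1b, were from low control means of 0.537, 0.754 and 0.545 CPM. Over all genes tested, 25.4% were called higher and 20.0% lower, and over those of at least 10 CPM 21.1% and 30.7%. The C/EBP-ATF response element that ATF4 binds was searched as TGATGNAAT, with its last letter fixed. These letters were in 317 promoters (0.965%) and in no member. Sites with other letters, or outside the stretch searched, would be missed, so this does not show that the members lack the element. A shorter form chosen after that result, TGATGCAA, was in 294 promoters (0.895%) and in 3 members, Chac1, Herpud1 and Vldlr, which were called lower, higher and not called.

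**Figure D3:**
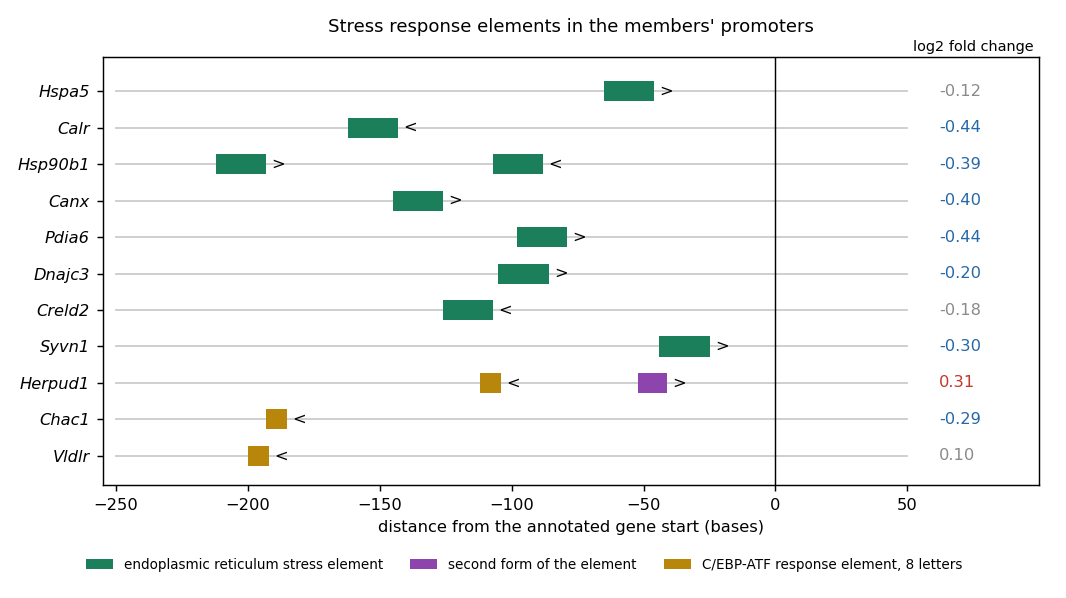
Position of the stress elements (coloured boxes, to scale) from 250 bases before to 50 bases after the annotated start of each gene, with > for the letters as written and < for the reverse complement on the strand of the gene. The log2 fold change at the right is negative for all 8 genes with the green element (Hspa5 was at 0.03 when scaled by library size only) and 0.31 for Herpud1, which has the purple second form. Gold boxes mark the shorter C/EBP-ATF letters in Herpud1, Chac1 and Vldlr.

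Compared per length of annotated exons, the members cover a wide range of expression in the controls. Atf4 was the highest, at 167 CPM per kb, followed by Pdia3 (144), Hspa5 (134), Hsp90b1 (118) and Calr (115). The sensors were near the bottom, with Atf6 at 8.27 CPM per kb, Ern1 at 4.11 and Eif2ak3 the lowest of all at 1.53. After the GapmeR, Eif2ak3 stood at 2.20 and Ern1 at 3.02 CPM per kb, so their order was kept. Exon lengths are from GENCODE on GRCm39 and take in every annotated exon, so the level per kb is understated for genes with long alternative transcripts.

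Genes of the same pathways outside the set, from lists written with earlier results known, are set beside the members. Of 51 other folding and degradation genes, 19 were called lower (37.3%) and 6 higher (11.8%), with a median of -0.14. Of 37 other integrated stress response genes tested, 5 were called lower (13.5%) and 7 higher (18.9%), with a median of 0.03. Of 20 cytosolic aminoacyl-tRNA synthetases, 3 were called lower (15%) and 4 higher (20.0%), with a median of 0. The shares of both these lists lie below the 20.0% lower and 25.4% higher of all genes tested. Scaled by library size only, the calls were 10 lower and 8 higher of the folding and degradation genes, 4 lower and 13 higher of the integrated stress response genes, and 2 lower and 8 higher of the synthetases. Without negative control 2, 12 of the folding and degradation genes were called lower, 4 of the integrated stress response genes higher, and 1 synthetase in each direction. Without negative control 1, 1 synthetase was called higher, and without GapmeR sample 2, 9 integrated stress response genes were called lower. The plot of shares called sets these genes beside the backgrounds.

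**Figure D4:**
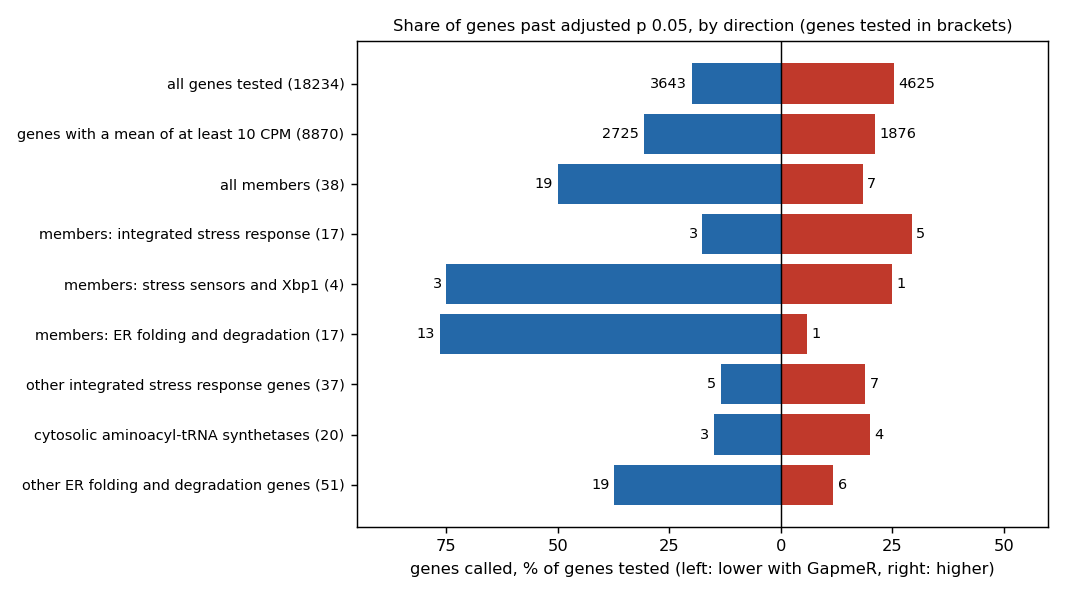
Percentage of tested genes called higher (right, red) or lower (left, blue) after the GapmeR at adjusted p 0.05, with the number of genes called at the end of each bar. The bar of genes called lower is 76.5% for the folding and degradation members and 37.3% for other genes of that kind, against 20.0% of all genes tested and 30.7% of those with a mean of at least 10 CPM.

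The larger changes among these other genes included several on the other side of 0 from the median of their list. Derl3, a channel component for removing misfolded proteins, had 270, 345, 259 and 259 counts after the GapmeR and 20 and 11 counts in the controls (log2 fold change 3.97, SE 0.23, adjusted p = 8.5e-10). Ero1lb (now Ero1b), an oxidase that recharges disulfide isomerases, was at 1.98 to 2.35 CPM against 0.621 and 0.470 CPM (2.04, SE 0.27, adjusted p = 1.3e-05). Uggt1, the glucosyltransferase that returns unfolded glycoproteins to calnexin, was at 113, 93.8, 106 and 103 CPM against 39.3 and 32.2 CPM (1.54, SE 0.10, adjusted p = 3.9e-09). All treated samples of these genes were above both controls, as they were for 7 of the 51 genes of the list, while 24 of the 51 were below both. Over all genes tested, 5811 of 18234 were above both controls and 4985 below. The thioredoxin-domain isomerase Txndc5 fell by 0.66 on the log2 scale (SE 0.07, adjusted p = 1.6e-06).

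The largest changes among the other integrated stress response genes were those of Slc7a3, Stc2, Slc7a11 and Slc3a2. Slc7a11, the cystine transporter, was at 242, 218, 231 and 227 CPM after the GapmeR and 107 and 105 CPM in the controls (log2 fold change 1.12, SE 0.07, adjusted p = 5.8e-09). Slc3a2, the heavy chain that carries Slc7a11 and other transporters to the membrane, was at 511, 482, 498 and 469 CPM against 951 and 1060 CPM (-1.03, SE 0.07, adjusted p = 1.5e-08). These partners moved in opposite directions, each with a gap between groups wider than the range of either. Exons of Snhg1 on the opposite strand cover 15.9% of the exon bases of Slc3a2, so reads there may be shared. The cationic transporter Slc7a3 rose by 1.97 (SE 0.21, adjusted p = 1.2e-06), from 1.39 and 0.940 CPM to between 4.40 and 4.88 CPM. The secreted hormone Stc2 fell by 1.88 (SE 0.25, adjusted p = 1.3e-05), from 3.18 and 4.39 CPM to between 0.743 and 1.45 CPM.

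Among the synthetases 1 gene stood out. Eprs, the glutamyl-prolyl-tRNA synthetase, was at 308, 242, 298 and 250 CPM after the GapmeR and 65.3 and 55.7 CPM in the controls, 4.53-fold higher (log2 fold change 2.18, SE 0.12, adjusted p = 3.2e-09). No other of the 20 reached a log2 fold change beyond the range of -0.40 to 0.28. The largest falls were those of Wars (-0.40, SE 0.09, adjusted p = 0.0015), Dars (-0.36, SE 0.11, adjusted p = 0.018) and Kars (-0.35, SE 0.08, adjusted p = 0.0019), the synthetases for tryptophan, aspartate and lysine. Atf3, a further stress-induced factor, was at 82.4 ± 3.03 CPM (SD, n = 4) after the GapmeR and 78.5 ± 4.04 CPM (SD, n = 2) in the controls and was not called (log2 fold change 0.07, SE 0.07, adjusted p = 0.45). The 3 kinases that act beside PERK on eIF2, Eif2ak1, Eif2ak2 and Eif2ak4, had log2 fold changes of -0.11, 0.11 and 0.14 and were not called.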

How the data were processed

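RNA of bEND.3 cells was sequenced in 4 GapmeR and 2 negative control samples, assigned by the labels of the samples. The authors sequenced total RNA after removal of ribosomal RNA, mapped the trimmed read pairs to mm10 with STAR and deposited raw counts for each Ensembl gene. The submitters' processing notes name Trimmomatic 0.36, STAR 2.5.2b and Subread 1.5.2. Whether counting used strand, and which Ensembl release, is not given in the sources used here, so reads of overlapping genes may be shared. 1 further column of counts was matched to no sample and was not used. The design text gives more controls than the 2 analysed here.

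Counts were tested with edgeR 4.0.16 in R 4.3.3 (TMM, robust quasi-likelihood, Benjamini-Hochberg over all 18234 genes that had a minimum of 5 counts in 2 or more samples). The SE is the size of the log2 fold change divided by the square root of F. The biological coefficient of variation was 8.42%. A floor of 3 counts is 0.0771 to 0.11 CPM, for counting error only. The chi-square per degree of freedom between replicates was 5.41 to 25.2, so none was a duplicate within sampling noise. Pairs of GapmeR sample 2 with samples 1, 3 and 4 were at 21.3, 25.2 and 18.5. The other GapmeR pairs were at 5.41, 10.7 and 9.74, and the control pair at 6.67.

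Alternatives were DESeq2 1.42.0 (size factors, Wald test), limma-voom 3.58.1, library size only, other filters, a fold threshold of 1.5, the replicate block and each sample left out. GapmeR samples 1 and 2 only, the background of genes of at least 10 CPM and the shorter C/EBP-ATF letters were chosen after seeing the data. The main edgeR fit, DESeq2's Wald test and limma-voom were checked on simulated counts with known changes, drawn with the same dispersion for every gene. The other settings were not checked in this way. Overlap and exon lengths used GENCODE vM39, and gene starts and promoters RefSeq GRCm38.p6. Tables were joined in Python 3.11.15 with pandas 2.3.3.

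The members and lists were chosen with earlier results of these data known. Every member is named. Values per sample are given for Atf4, Ddit3, Xbp1, Ern1, Atf6, Eif2ak3, Hspa5, and the 7 highest and 7 lowest called members, and for some others whose values were already seen. Of each other list, up to 4 called genes with a mean of at least 1 CPM and the largest changes are named. Atf3, the eIF2 kinases and Ero1b's promoter were named after their values were seen.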

Additional observations from a re-analysis of the deposited data

Results flagged for a closer look

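In each of the 38 members, the highest and lowest of the 4 GapmeR samples were compared with the nearest other sample, as a share of the range of the group. In 3 members this gap was above the critical value of Dixon's test, where chance alone flags about 1 in 20 groups. Phgdh was at 142 CPM in GapmeR sample 2, below the other GapmeR samples (165 to 170 CPM). Shmt2 was at 298 CPM in GapmeR sample 2, below the others (329 to 335 CPM). Dnajc3 was at 52.8 CPM in GapmeR sample 1, above the others (51.0 to 51.3 CPM), while the controls were at 56.6 and 61.5 CPM.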

How the results depend on the processing

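Of the 26 called members, 17 kept their call in all 14 settings that kept the threshold at adjusted p 0.05 with no fold threshold, 9 lost it in at least 1 and none changed sign. Of the 12 not called, Atf4, Asns, Cebpg, Psat1, Shmt2, Vldlr and Manf passed in some setting, Manf with DESeq2's Wald test (-0.32, adjusted p = 0.032) and limma-voom (-0.34, adjusted p = 0.049) among them. Scaled by library size only, 13 members, 13 other integrated stress response genes and 8 synthetases were called higher, and 10 other folding and degradation genes lower, in place of 7, 7, 4 and 19. The uncalled Sesn2 (0.01), Phgdh (0.01), Mthfd2 (0.05) and Hspa5 (0.03) then had a positive log2 fold change, following the shift of all genes by 0.15. A threshold of 1.5-fold, which few of these modest changes reach, moved the counts further: 2 members were called higher and 2 lower, 3 and 3 other integrated stress response genes, 1 and 0 synthetases (3 lower without it), and 3 and 3 other folding and degradation genes.

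Leaving out 1 sample gave 5 to 10 members called higher and 13 to 20 lower. Other integrated stress response genes ranged from 4 to 8 higher and 4 to 9 lower (4 higher without negative control 2, 9 lower without GapmeR sample 2). Synthetases ranged from 1 to 6 higher (1 without either control) and 1 to 3 lower (1 without negative control 2), and other folding and degradation genes from 5 to 7 higher and 12 to 23 lower (12 without negative control 2). The cause was not tested, but each setting without a control leaves 1 control library, whose spread is taken from the GapmeR samples.

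The replicate number as a block used 4 samples with 1 residual degree of freedom and gave 7 members called higher and 16 lower, with Atf6, Dnajb9, Dnajc3 and Trib3 no longer called and Cebpg called. Same-numbered samples correlated at -0.0756 and 0.144 in their deviations over 10922 genes. With 2 controls, both values rest on the same difference between the controls with its sign turned. They cannot decide whether the numbers pair samples, and the main fit used no pairing. With 2 controls and 4 treated samples, an exact permutation test has 15 splits, and no one-sided p below 0.0667 can be had. In the two-sided permutation test run on the members, the lowest p was 0.133.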
